A study of Rattus norvegicus with 42 samples.

Results

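The 187 genes described here are those whose expression in Neat1 knockout cells lay above wild type at some times of a time course and below it at others. They are 1.36% of the 13776 genes in the deposited count tables. GH4C1, a rat somatolactotroph line from the pituitary, was used as wild type without treatment (WT) and as a Neat1 -/- line made with CRISPR-Cas9 (KO). Cells were synchronised by a change to fresh medium and harvested at 4 h intervals, the first time 10 h after the change (T10) and the last 34 h after it (T34). Each genotype was sampled at these 7 times, with 3 replicates per group and 42 libraries in all. No other drug or allele is named, both lines share the medium change, and whether KO is 1 clone or several is not given in the sources used here. Nor do the labels say whether replicates were separate cultures, so p-values measure the spread between these samples, which may be technical.

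Members were selected on the ratio of KO to WT in counts-per-million values (CPM). A member had a KO to WT ratio of group means of at least 1.3 at 1 or more times and of at most 0.77 at 1 or more other times. In addition, each of its 14 group means was at least 5 CPM, a condition that 10096 genes met, of which the members are 1.85%. The totals behind CPM left out 2 genes, which took 17.6% to 21.2% of the counts in KO libraries and 0.0308% to 0.335% in WT libraries. WT T34 replicate 1 was left out as well, so WT T34 has 2 libraries here. Because the ratios chose the members, their sizes, directions and tests are descriptions of the choice and support nothing further. Just inside the thresholds lay members with highest and lowest ratios of 1.331 and 0.7699, of 1.3011 and 0.513, and of 1.381 and 0.7687. Just outside lay genes with 1.2994 and 0.717, with 1.2965 and 0.697, and with 1.2961 and 0.766.

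Neat1 is a long non-coding RNA on which paraspeckles assemble. These nuclear bodies hold RNA-binding proteins and keep some transcripts in the nucleus, and in pituitary cells they have been studied for their part in daily rhythms of gene expression. Somatolactotrophs make growth hormone and prolactin, and a change of medium or serum is a common way to bring cultured cells into step, after which transcript levels can cycle or drift. In a time course, a knockout can shift the level of a gene, or the course of that level over time. A ratio that crosses 1 would be a case of the second kind. Replicate spread and the choice of totals can also make a measured ratio cross 1.

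The deposited tables give Ensembl rat identifiers without gene names, and 0 of the 13776 identifiers matched the RefSeq table used here. Members are therefore described by their behaviour, and 4 of them, 2 per direction, by identifier. The level of Neat1 itself, the markers of the cell type and gene groups by function were not analysed here, and the genotypes stand as labelled. Library totals ran from 34500833 to 68839776 counts in WT and from 45850734 to 60482227 counts in KO. Replicate libraries correlated at r = 0.9902 to 0.9968 across genes (log2 CPM) in 40 pairs, and at 0.9197 and 0.9377 in the 2 pairs that hold WT T34 replicate 1. The lowest count of any member in a library used was 130, and the median over members of this lowest count was 750.

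Members fell into 3 classes by the order of their times past the thresholds. In 106 of them KO lay below WT first and above it later. In 63 the order was the opposite, with KO first above and then below. The other 18 had times of both kinds in mixed order. The ordered classes are named below as members that ended higher in KO and members that ended lower. These names follow the order of times past the thresholds and not the ratio at T34. At T34, 86 of the 106 were at or above 1.3 and 56 of the 63 at or below 0.77. The switch came late in most. In 144 of the 187 members (93 of the 106 that ended higher and 51 of the 63 that ended lower), the times on the second side of the threshold were T30 or T34 alone. Of the 187, 132 changed the sign of their ratio once along the course. Between T26 and T30 the ratio crossed 1 in 60 of the 88 such members that ended higher and in 20 of the 44 that ended lower.

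**Figure D1:**
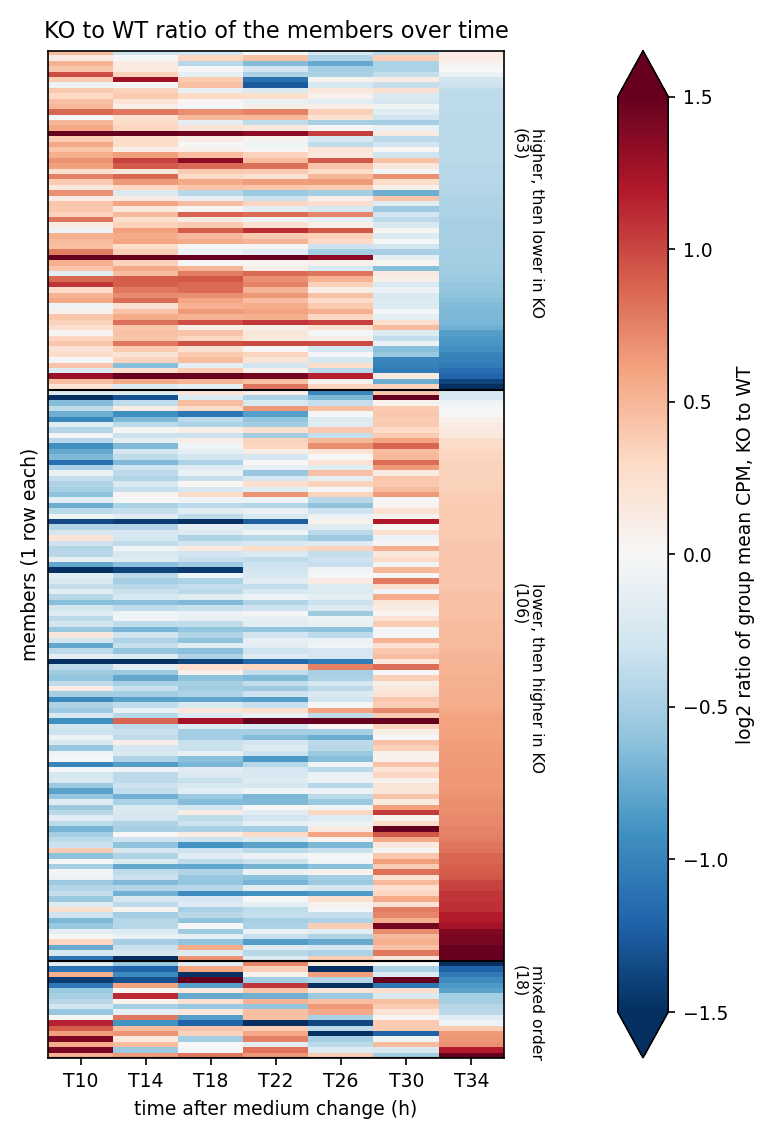
Log2 ratio of group mean CPM, KO to WT (colour, clipped at 1.5 in both directions), for the 187 members in rows and the 7 times in columns, sorted within each class by the ratio at T34. The 63 members above and the 106 below the first black line change colour mostly between T26 and T34, while the 18 of mixed order show scattered switches.

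The median log2 ratio of the 106 members that ended higher in KO went from -0.40 at T10 through -0.38, -0.33 and -0.25 to -0.20 at T26. It then stood at 0.38 at T30 and 0.53 at T34. For the 63 that ended lower, the median went from 0.42 at T10 through 0.39, 0.40 and 0.27 to 0.15 at T26, and then to -0.20 and -0.49 at the last 2 times. Both classes therefore drifted towards equality from T10 to T26 and passed it in the last 8 h, which the choice of classes favours. By single times, 92 members were at or above a ratio of 1.3 at T34 and 66 were at or below 0.77. The same counts were 47 and 66 at T10, and 30 and 52 at T26. Of the 10096 genes at the minimum level, 32.44% were at or above 1.3 at T34 and 25.23% at or below 0.77, with 27.46% and 26.61% at T10. T34 held the highest ratio of 75 members and the lowest of 55, so the 2 WT T34 libraries bear on many of the choices.

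The sizes were moderate. The swing, which is the highest minus the lowest log2 ratio, had a median of 1.25 and a range of 0.77 to 4.17, against a median of 0.41 over the 10096 genes at the minimum level. The median highest ratio was 1.52 and the median lowest 0.692. In 8 members the ratio reached 2-fold in each direction, and 3 of these 8 were called both higher and lower in KO by edgeR's test described below, as were 7.93% of all genes. Levels were modest too: the mean over groups had a median of 30.8 CPM, against 46.0 over the 10096. The members that ended lower in KO had a median of 53.5 CPM and those that ended higher 24.99 CPM. Since the 5 CPM minimum had to be met in every group, low genes that fall away in 1 genotype are not among the members.

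Which genotype moved was not set by the rule. For each member, the change from its lowest-ratio time to its highest-ratio time was split into the change in KO and the change in WT, on the log2 scale. KO made at least 2/3 of that change in 109 members, WT did so in 26, and 52 lay between. Among the members that ended lower in KO the counts were 43 for KO, 11 for WT and 9 between. Among those that ended higher they were 56, 12 and 38. With an even split in place of 2/3 and 1/3, a limit chosen after the values were seen, the change lay mainly in KO for 137. This split was not made over all genes at the minimum level, so the counts are not read as a trait of the members. Over all genes, edgeR's test called a change over time in 60.6% in KO and in 44.1% in WT, which is 8346 and 6078 genes. With all 42 libraries it called 5065 in KO and 5168 in WT, so the larger count in KO depends on leaving out WT T34 replicate 1.

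**Figure D2:**
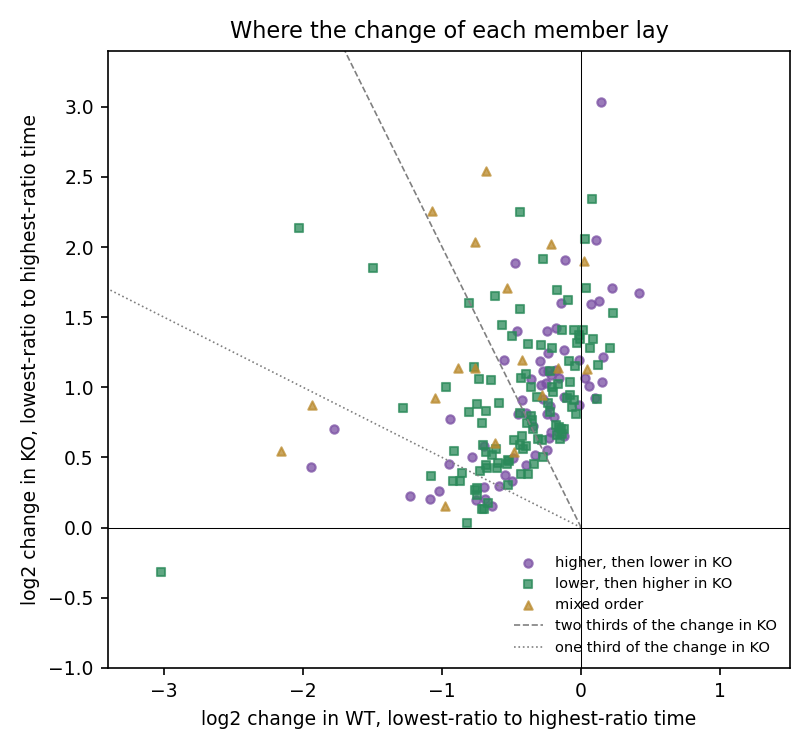
Log2 change in KO (vertical) against log2 change in WT (horizontal), each from a member's lowest-ratio to its highest-ratio time, with 1 point per member and symbols by class. The 109 points right of the dashed line owe at least 2/3 of their change to KO and the 26 below the dotted line owe at least 2/3 to WT.

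The late switch lay mostly in the KO libraries. From T26 to T34 the level in KO changed by a median of -0.79 (log2) in the members that ended lower and was below 0 in 54 of the 63. In the members that ended higher the median was 0.63, above 0 in 98 of the 106. Over the same 8 h WT changed by medians of 0.01 and -0.06. The classes follow the order of the ratios, which favours a late change of KO against WT in the direction of the class. Over the 10096 genes the medians were 0.04 in KO and -0.02 in WT, and KO was below 0 in 4507 and above 0 in 5589. The quartiles over these genes were -0.161 and 0.235 in KO, and -0.137 and 0.1 in WT. From T10 to T26 the level in WT changed by a median of 0.21 in the members that ended lower and of -0.17 in those that ended higher. The corresponding medians in KO were -0.09 and 0.02. Over the 10096 genes the quartiles for T10 to T26 were -0.118 and 0.116 in WT, and -0.091 and 0.093 in KO. These early changes differed between the timings described below, and WT did not move clearly more in the most common of them.

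**Figure D3:**
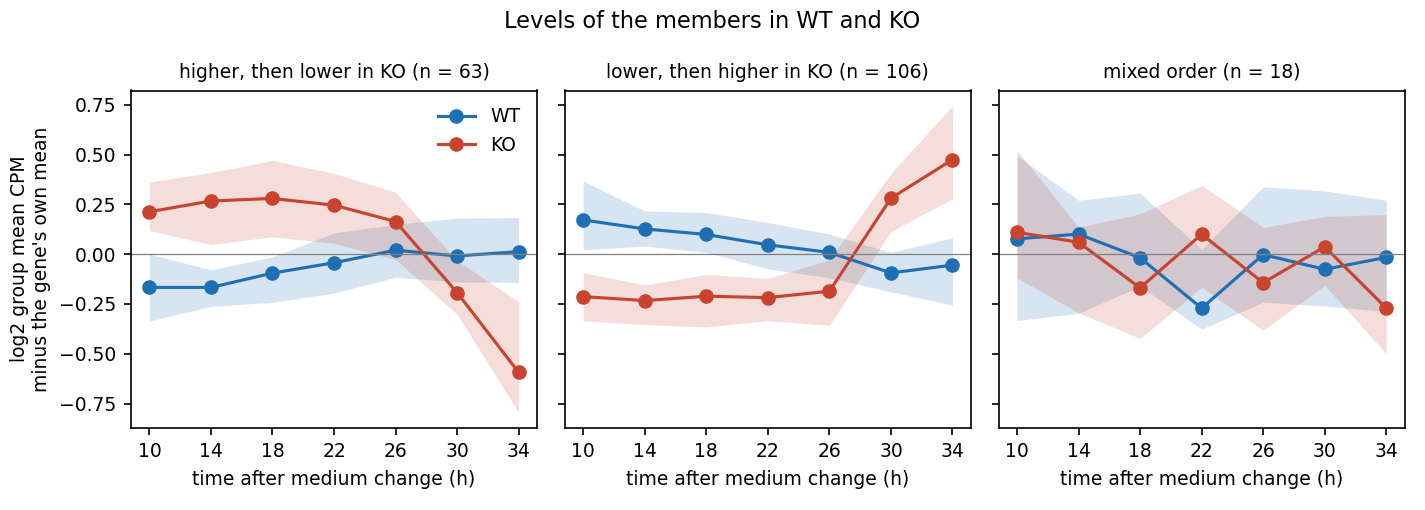
Level of the members in WT (blue) and KO (red), as log2 group mean CPM minus the gene's own mean over groups, against time in h, with lines at the median and bands from the lower to the upper quartile of members. In the class that ended lower KO goes from a median of 0.16 at T26 to -0.59 at T34, and in the class that ended higher from -0.19 to 0.48, while WT stays within 0.17 of 0 in both.

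Within the 2 ordered classes the timing took 3 main forms. The first and most common had times other than T10 alone on the first side and only T30 or T34 on the second, and held 40 members that ended lower and 77 that ended higher. In these, KO made most of the change in 36 of the 40 and in 49 of the 77, and KO from T26 to T34 changed by medians of -0.92 and 0.79. From T10 to T26 their medians were 0.037 and -0.072 in WT, and -0.062 and -0.035 in KO. The second timing had T10 as its sole time on the first side and T30 or T34 on the second, in 11 and 16 members. KO made most of the change in 4 and 5 of them, and WT in 5 and 4. WT from T10 to T26 moved by medians of 0.488 and -0.405, against -0.091 and 0.152 in KO. The third, with T10 alone on the first side and a switch reached before T30, held 8 members that ended lower and 9 that ended higher. There WT made most of the change in 4 of the 8 and 6 of the 9, with WT from T10 to T26 moving by medians of 0.74 and -0.76, against -0.37 and 0.19 in KO. The remaining 8 members of the ordered classes followed none of these timings.

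ENSRNOG00000012772 ended lower in KO and had the largest swing among members of its class that were called in both directions. Its mean level in KO fell at each step of the course, and the change over time in KO was called by edgeR (adjusted p = 3.31e-14). In the 3 KO libraries it was 228, 235 and 229 CPM at T10, 177, 184 and 183 CPM at T18, and 122.9, 137.2 and 129.4 CPM at T26. At T30 the KO libraries held 118, 35.9 and 55.1 CPM, and at T34 they held 19.5, 21.4 and 25.4 CPM. WT stood at 95.3, 95.2 and 93.4 CPM at T10, at 58.9, 56.1 and 51.5 CPM at T18, and at 50.9 and 49.6 CPM in the 2 libraries used at T34. KO and WT did not overlap at T10, T18, T26 or T34, and at T30 replicate 1 of KO lay above the WT libraries while the other two lay below them. The KO to WT ratio was 3.27 at T18 and 0.440 at T34. In edgeR's quasi-likelihood test the log2 ratios were 1.72 (SE 0.19, adjusted p = 6.75e-10) and -1.26 (SE 0.22, adjusted p = 3.67e-06). On the log2 scale KO was 3.04 higher at T18 than at T34, and WT was 0.14 higher. The WT T34 library left out held 36.8 CPM, still above KO at T34.

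ENSRNOG00000016690 had the same order, with KO levels of 73.9 to 104 CPM up to T26 and lower ones afterwards. KO libraries held 74.6, 73.9 and 76.4 CPM at T10, 102, 102 and 99.8 CPM at T18, and 85.0, 104 and 86.4 CPM at T26. They then held 65.3, 28.6 and 34.6 CPM at T30 and 25.1, 27.9 and 29.1 CPM at T34. WT moved the other way, from 20.7, 22.3 and 26.4 CPM at T10 to 43.6, 49.997 and 48.1 CPM at T30, with 39.9 and 38.3 CPM in the libraries used at T34. The ratio was 3.61 at T18 and 0.701 at T34, with edgeR log2 ratios of 1.87 (SE 0.17, adjusted p = 6.26e-12) and -0.59 (SE 0.19, adjusted p = 0.00481). The lower side rests on the choice of WT T34 libraries: the one left out held 15.0 CPM, below KO, and with it the log2 ratio of means at T34 was -0.18 in place of -0.51. The gene was then not called in both directions, nor was it without replicate 2.

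ENSRNOG00000025764 ended higher in KO and is a case in which WT moved. WT libraries held 66.2, 71.8 and 55.3 CPM at T10, then 13.3, 16.4 and 14.3 CPM at T14 and 8.78, 7.20 and 7.83 CPM at T22. KO held 33.9, 33.6 and 34.3 CPM at T10, 26.6, 28.5 and 25.2 CPM at T14, and 28.6, 26.7 and 26.4 CPM at T22. The 2 genotypes did not overlap at any of these times, and KO went from the lower to the higher side within the first 4 h of the course. The ratio was 0.527 at T10 and 3.43 at T22, with edgeR log2 ratios of -0.92 (SE 0.10, adjusted p = 6.94e-10) and 1.78 (SE 0.11, adjusted p = 5.46e-16). WT changed by -3.02 on the log2 scale from T10 to T22 and KO by -0.32. At T34 KO held 17.6, 12.2 and 13.0 CPM and WT 9.95 and 8.88 CPM, and the WT library left out stood at 18.8 CPM, above the KO libraries.

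ENSRNOG00000008648 had the largest swing among members that ended higher and were called in both directions, at 3.35, yet its libraries were uneven. Of the 42, 32 held 5.74 to 9.27 CPM, 9 held 22.7 to 43.2 CPM and 1 held 13.7 CPM. The 9 high libraries were 5 of WT and 4 of KO, and they sat beside low replicates of the same group. At T10 WT held 31.2, 31.1 and 8.06 CPM against 6.78, 6.83 and 7.20 CPM in KO. At T30 WT held 9.22, 7.54 and 8.15 CPM against 8.80, 28.4 and 38.0 CPM in KO. The groups overlapped at T30 and did not at T10, where the lowest WT library was close to KO. The edgeR log2 ratios were -1.76 (SE 0.59, adjusted p = 0.00757) and 1.55 (SE 0.58, adjusted p = 0.0161). The interaction of genotype and time had an adjusted p of 0.0285, which became 0.212 without replicate 2, 0.0521 without replicate 3 and 0.0504 with all 42 libraries. Without replicate 2, and likewise without replicate 3, the gene was not called in both directions.

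**Figure D4:**
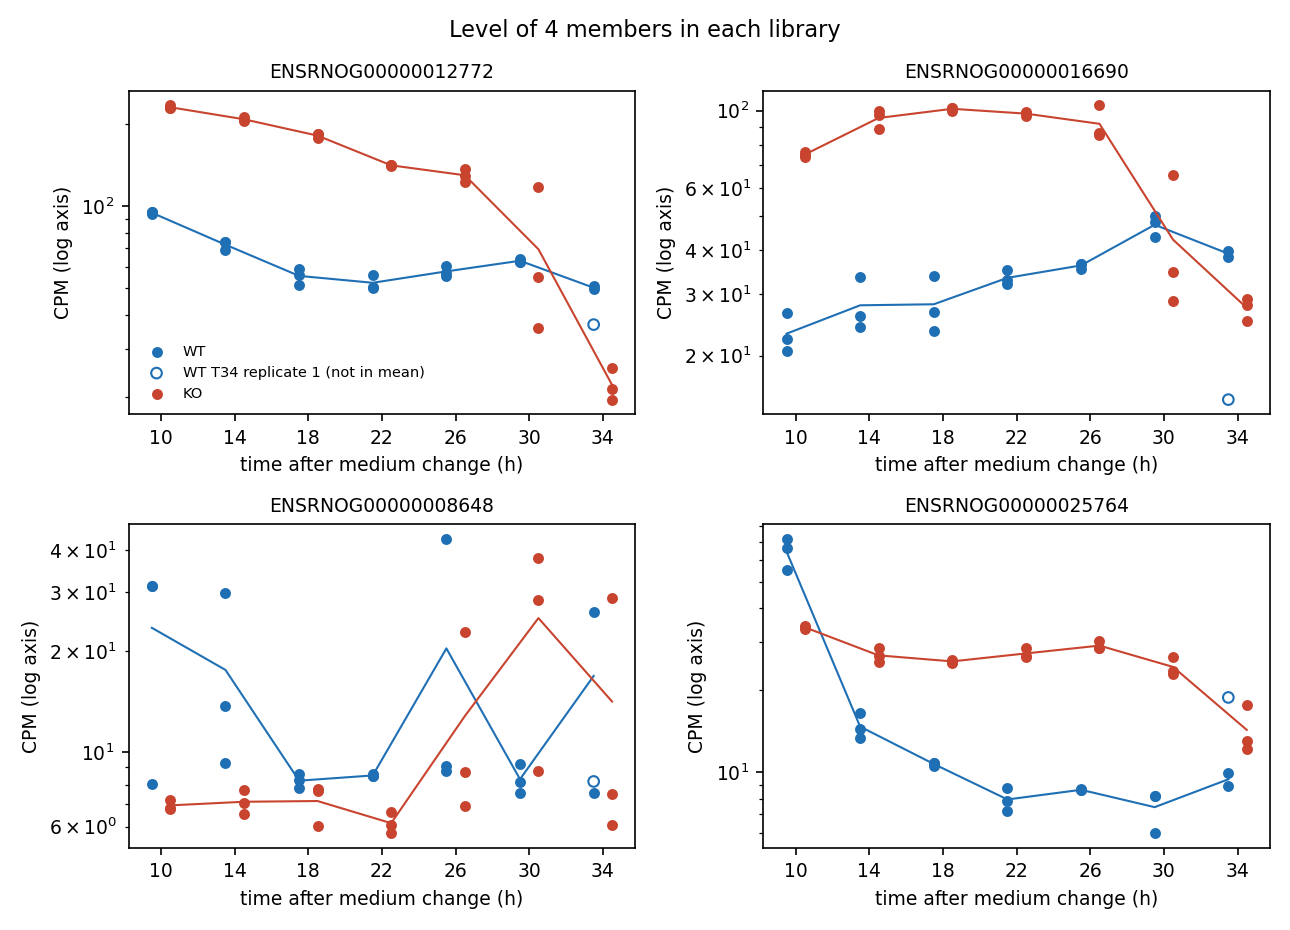
CPM on a log axis against time in h for 4 members, with 1 point per library, WT in blue and KO in red, lines through group means, and an open circle for the WT T34 library not in the mean. In ENSRNOG00000012772 KO falls from 228 to 235 CPM at T10 to 19.5 to 25.4 CPM at T34, and its mean lies above that of WT up to T30 and below it at T34, whereas ENSRNOG00000008648 has high and low libraries side by side within groups of both genotypes.

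Unevenness of this kind set the mixed class apart. The largest SD between replicates in any group (log2) had a median of 1.38 in the 18 members of mixed order, against 0.29 in those that ended lower, 0.31 in those that ended higher and 0.17 over the 10096 genes. It was over 1 in 20 members, 11 of them mixed, and 1 of these 20 was called in both directions, as were 7.93% of all genes. The largest swing of all, 4.17, belonged to such a member: at T34 its KO libraries held 6.70, 63.1 and 3.49 CPM and the 2 WT libraries used 7.42 and 3.77 CPM. The WT T34 library left out held 28.0 CPM. At T14 its WT libraries held 4.90, 4.48 and 59.1 CPM and its KO libraries 4.39, 4.89 and 7.38 CPM. A single library thus set each of its extremes. The swing exceeded 3 times the largest group SD in 50 of the 63 members that ended lower, 75 of the 106 that ended higher and 3 of the 18 mixed.

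The 3 most abundant members show how even and uneven cases look at high counts. The most abundant, at a mean of 814 CPM, held 724, 723 and 745 CPM in KO and 1008, 992 and 890 CPM in WT at T18. At T34 it held 870, 948 and 889 CPM in KO against 662 and 679 CPM in WT, so that the genotypes did not overlap at either time. The next, at 740 CPM, held 870, 884 and 894 CPM in KO against 693, 725 and 596 CPM in WT at T18, and 473, 472 and 502 CPM in KO against 742 and 616 CPM in WT at T34. The WT T34 library left out held 418 CPM of it, below the 3 KO libraries, so the direction at T34 turns against that library. The third, at 568 CPM, owed its place to 1 library: KO T30 replicate 1 held 1692 CPM beside 491 and 418 CPM in its replicates, and the gene was not called in both directions. Of the 33 members at 100 CPM or more, 27 were called in both directions, against 7.93% of all genes, and the rule used that contrast.

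Over all genes, edgeR's quasi-likelihood test of the interaction of genotype and time called 54.0% at an adjusted p under 0.05, which is 7441 genes. It called 5416 with all 42 libraries, 6526 without replicate 1, 3980 without replicate 2 and 4846 without replicate 3. Among members 167 of 187 were called, a count that the rule itself favours: 57 of the 63 that ended lower, 99 of the 106 that ended higher and 11 of the 18 mixed. Being called higher in KO at 1 or more times and lower at others was rarer, at 7.93% of all genes, and held for 161 members, each at its own extremes. A change over time was called in WT in 44.1% of all genes and 106 members, and in KO in 60.6% of all genes and 169 members. For 67 members the change over time was called in KO and not in WT, for 4 the reverse, for 102 in both and for 14 in neither, without a test of the difference between genotypes in these counts. The same counts were not made over all genes, so they are not read as a trait of the members. By direction, KO was called higher at T10 in 38.3% of all genes and 51 members and lower in 38.2% and 76. At T34 it was called higher in 38.0% and 91 members and lower in 37.7% and 59. Without any model, the KO and WT libraries stood apart without overlap in both directions in 11.8% of the 13774 genes and in 163 members.

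A direction chosen in some replicates could be looked at in the others. With replicate 2 left out, the rule chose 183 genes, 137 of them among the 187, and the left-out libraries lay on the same side of 1 at both extremes in 159 of them (86.9%). Of 2894 genes whose ratio merely lay above 1 at some time and below 1 at another, 66.0% did so. With replicate 3 left out, the rule chose 211 genes, 150 of them among the 187, and 179 of the 211 (84.8%) did so, against 62.2% of 2907 genes. With replicate 1 left out, it chose 221 genes, 162 of them among the 187. Those with an extreme at T34 could not be judged, and of the remaining 96, 55 (57.3%) lay on the same side at both extremes, against 49.1% of 1394 genes. The share was lowest for replicate 1, where the genes judged had no extreme at T34, and the difference between replicate numbers was not tested. The comparison genes needed only a ratio on each side of 1, and so include ratios near 1. The larger ratios that the rule requires favour a higher share by themselves. The contrast with the comparison genes is therefore not read as support for the directions of the members.

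Replicate 1 also holds the 2 libraries that stand apart. KO T30 replicate 1 lay nearer to the KO T26 mean than to its own replicates in 144 of 187 members (77.0%), against 67.3% of the 10096 genes. The same measure gave 25 members for replicate 2 and 26 for replicate 3. In the members that ended higher, KO T30 replicates 1, 2 and 3 stood at medians of 0.17, 0.57 and 0.55 (log2) above the KO T26 mean, and the 3 KO T34 libraries at 0.61, 0.67 and 0.64. In those that ended lower the T30 medians were -0.09, -0.51 and -0.41, and at T34 they were -0.75, -0.88 and -0.75. At T30 the median member was thus displaced in 2 KO libraries and close to its T26 level in the other, and the source of that difference was not tested. Without KO T30 replicate 1 the rule chose 196 genes, 186 of them among the 187.

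**Figure D5:**
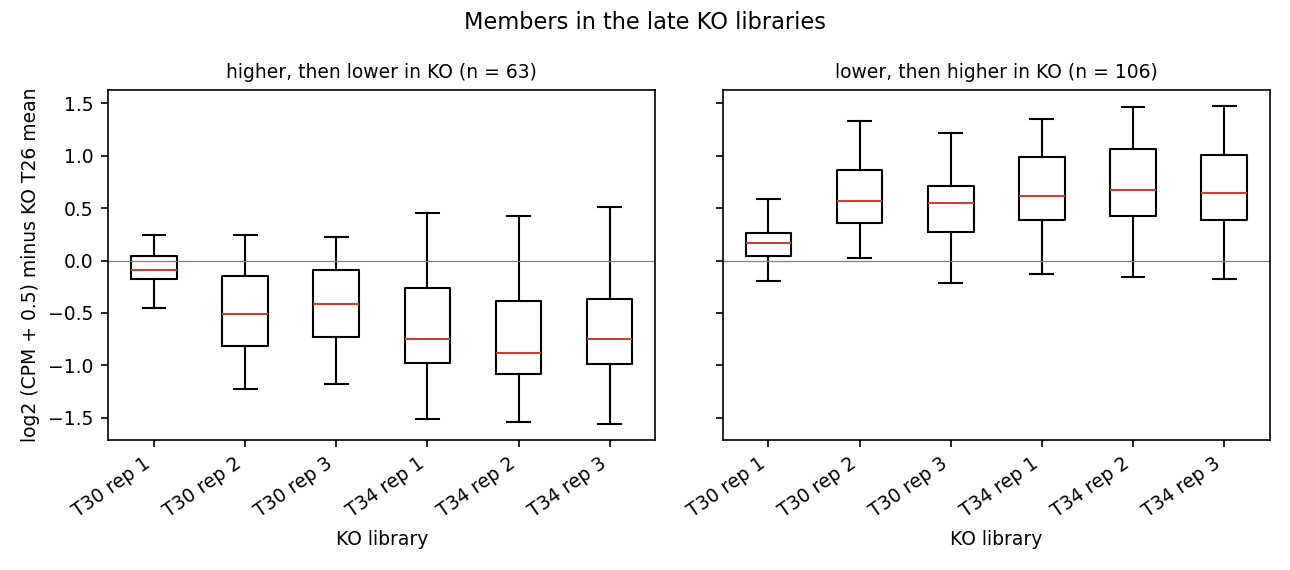
Log2 (CPM + 0.5) in each KO library of T30 and T34 minus the mean of the KO T26 libraries, over the 63 members that ended lower (left) and the 106 that ended higher (right), with boxes at the quartiles, a red line at the median and whiskers at the 5th and 95th percentiles. Replicate 1 of T30 stays near 0, with medians of -0.09 and 0.17, while the other 5 libraries are displaced in the direction of the class.

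WT T34 replicate 1, which the rule did not use, was nearer to KO T34 than to the other WT T34 libraries in 81 of 187 members (43.3%), against 61.9% of the 10096 genes. Measured against this library alone, the ratio at T34 kept its sign in 139 of the 187 members and in 5627 of the 10096 genes. Many members were chosen on their T34 ratio to the other WT T34 libraries, which favours both differences from the 10096. Once WT T34 replicate 1 was included in the means, the rule chose 381 genes, among them 161 of the 187. Without the T34 libraries of both genotypes 97 of the 187 still met the rule, 58 of those that ended higher, 21 of those that ended lower and the 18 mixed.

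The membership also depends on the scale, since a ratio near 1 changes side when all ratios shift together. When the 2 genes left out of the totals were kept in them, the log2 ratios of the 10096 genes shifted by a median of -0.31 to -0.29 at the different times. The rule then chose 163 genes, of which 64 were among the 187. With edgeR's TMM scaling it chose 172, of which 153 were shared: 61 of the 63 that ended lower, 75 of the 106 that ended higher and 17 of the 18 mixed. Values for members here are therefore relative to the bulk of other transcripts, and the fall or rise of a member within 1 genotype does not speak to its absolute amount per cell.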

How the data were processed

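The authors deposited whole-number read counts per gene, 1 table per genotype, made with featureCounts per the submitters' processing notes, from strand-specific paired reads of 150 bp per the labels' protocols. The aligner, genome build, annotation and strand setting are not given in the sources used here. CPM was the count divided by the library total, both without the 2 genes with the highest summed KO to WT count ratios. The members and gene lists were chosen with earlier results of these data known. The lists and markers could not be applied without gene names. edgeR 4.0.16 (R 4.3.3) was fitted to 41 libraries and 13776 genes with 1 mean per group, TMM scaling and quasi-likelihood F tests, with Benjamini-Hochberg adjustment over all genes and calls at an adjusted p under 0.05. The filter on low counts removed 0 genes, and the fit was tested on simulated data. WT T34 replicate 1 was left out, as by the rule. Named members were the 2 with the largest swing in each ordered class among those called in both directions. SDs and differences of libraries used log2 values. Replicate counts differed by more than sampling noise in 42 of 42 pairs. Same-numbered samples were not treated as paired in the main fit. Their deviations correlated at a median of -0.014 (20 pairs, -0.119 to 0.135), which shows no pairing but cannot exclude it. Alternatives were other scalings, thresholds and library sets, a replicate block and DESeq2 1.42.0.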

Additional observations from a re-analysis of the deposited data

Results flagged for a closer look

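The interaction of genotype and time, which tests directly whether the KO to WT difference changed between times, was called by edgeR's quasi-likelihood test for 167 of the 187 members and for 54.0% of all genes. Its adjusted p was 9.94e-10 for ENSRNOG00000012772, 7.82e-11 for ENSRNOG00000016690, 0.0285 for ENSRNOG00000008648 and 1.33e-15 for ENSRNOG00000025764. These differences between times are part of how the members were chosen.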

How the results depend on the processing

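Of 64 alternative log2 ratios of the 4 named members, 7 moved by more than the combined SD and 0 changed sign. The combined SD is the root of the summed squares of the KO and WT replicate SDs. Keeping the 2 genes in the totals moved both extremes of ENSRNOG00000012772, ENSRNOG00000016690 and ENSRNOG00000025764. The remaining move was that of ENSRNOG00000016690 at T34 with all 42 libraries. Some of the 64 could not move, since adding WT T34 replicate 1 or leaving out KO T30 replicate 1 alters ratios at that time only. For ENSRNOG00000008648 the combined SD was 1.09 at its highest time. Ratios of 1.15 without replicate 3 and 2.08 without replicate 1, against 1.59, therefore did not count as moved. Of 139 alternative counts, 128 stayed within 1.5 times the reported count, which does not say that they hold the same genes: with the 2 genes kept in the totals the rule chose 163, of which 64 were shared. The 128 include the fit without the filter on low counts, which repeats the main fit because the filter removed 0 genes. The number of genes meeting the rule was 41 at ratios of 1.5 and 0.67, 447 at 1.2 and 0.83, 358 at a minimum of 1 CPM, 381 with all 42 libraries and 97 without T34, and ranged from 183 to 221 with 1 replicate number left out. It was 134 at a minimum of 10 CPM, 192 with group medians and 167 without members that had a group SD over 1. With single replicate numbers or KO T30 replicate 1 left out, edgeR called 3980 to 7826 genes for the interaction against 7441, 2729 to 6671 against 6078 for change in WT, 5554 to 8537 against 8346 for change in KO, and 664 to 1256 against 1093 in both directions. Leaving out replicate 2 gave the lowest of each. Fewer libraries enter these fits: 28 without replicate 1, 27 each without replicate 2 and without replicate 3, and 40 without KO T30 replicate 1. Why the counts moved, in these or other settings, was not tested. With all 42 libraries the interaction was called for 5416 genes, the change in KO for 5065 and the change in WT for 5168. Members called in both directions ranged from 139 to 165. DESeq2 called 7981 genes for the interaction and 1091 in both directions, 162 of them members.

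With the replicate block, the interaction was called for 7475 genes and 166 members, and both directions for 1106 genes and 160 members; change in WT was called for 6055 genes and in KO for 8348. The main fit did not pair samples by number, and 2 of 20 correlations between same-numbered samples were over 0.1, a check that cannot exclude pairing. At these depths, replicate spread and the 2 WT T34 libraries limit the smaller ratios. No member's function, position or sequence was analysed here.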
